A study of Rattus norvegicus with 62 samples.

Results

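The transcripts of 5 matrix genes, those of the fibrillar collagens Col1a1, Col1a2 and Col3a1, of fibronectin (Fn1) and of the collagen-binding protein Sparc, were followed in the amygdala of 62 rats. The genes were picked by name, as 5 of 32545 rows of the count table, each identified by its rat Ensembl ID. Animals were male Long Evans rats of 10 to 12 weeks at the start, and sham and blast animals were handled alike apart from the blast itself, a 74.5 kPa overpressure given once a day over 3 days. Sub-acute animals, 17 sham and 17 blast, underwent behavioral testing 1 to 1.5 months after exposure, and chronic animals, 14 sham and 14 blast, 12 to 14 months after it, with tissue taken after the last test. The chronic animals were thus also older, and age and time since exposure cannot be told apart. Punches of the central and basolateral nuclei from both hemispheres were sequenced as bulk tissue.

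Fibrillar collagens are the rope-like proteins of connective tissue. Type I collagen joins chains of Col1a1 and Col1a2, type III collagen is built from Col3a1 alone, fibronectin links cells to these fibers, and Sparc is a secreted glycoprotein that binds collagen and takes part in its assembly. Brain tissue itself holds little fibrillar collagen, which lies mainly in the meninges and around larger vessels, whereas Sparc is also made by endothelial cells and glia.

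Only one difference of these genes between groups passed adjustment. Sparc was downregulated in chronic compared to sub-acute blast animals, to 0.748 times its level. The other members tested did not pass in this comparison, where 9.73% of all genes were called and 3.02% were called as lower. In sham animals Sparc had a log2 fold change over time of -0.17, which did not pass. A fall in Sparc with time that differed between blast and sham animals was not shown. The Sparc call was lost with the animal number series in the model (adjusted p = 0.103) and within series 1 alone (adjusted p = 0.285), and with surrogate variables the difference turned to 0.06 on the log2 scale (adjusted p = 0.623). No member passed between blast and sham animals at either time-point. Col1a1 and Col3a1 varied far more between animals of the same group than Sparc and Fn1 did, they rose and fell together, and the same 10 animals held the highest levels of both.

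Total counts per animal ran from 37627110 to 78585782 in the sub-acute groups and from 18220986 to 51769475 in the chronic groups. The chronic sham and the chronic blast group each had 1 library under 25000000 counts, and both of these libraries were among the 10 highest in Col1a1 and Col3a1. Animal numbers fall into series by their first digit, and all 28 chronic animals belonged to number series 1, against 2 of 17 sub-acute sham and 5 of 17 sub-acute blast animals. What such a series stands for is not given in the sources used here. The gene table at hand paired 0 of 32545 IDs with a symbol, so the 5 IDs carry the names under which they were picked, the tissue was not checked against marker genes, and markers of fibroblasts, vessels and meninges were not analysed here.

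Of the 5 members, 4 had enough counts for testing. The row that stands for Col1a2, ENSRNOG00000011292, held 1 count in 1 sub-acute blast animal and 0 counts in the other 61 animals. A floor of 3 counts corresponds to between 0.0388 and 0.160 CPM (counts scaled to library size) in these libraries, for counting error only. The row for its partner chain Col1a1 held between 152 and 2751 counts in every animal. Transcripts of the other type I collagen chain were therefore not detectable in this row while those of Col1a1 were counted throughout, and why the row is empty was not tested.

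Promoter sequences are shown for the member without counts and for the member that changed, which were the 2 of 5 members that matched the RefSeq table of the GRCr8 assembly. Each stretch covers the 250 bases before the annotated start, with searched motifs in capitals. The Col1a2 stretch, chr4:33518307-33518556 on the plus strand, has TATAAA, the letters of a TATA box, beginning 170 bases before the start, and farther from the start CCAAT, read as ATTGG on the other strand. Whether this TATAAA acts as a TATA box for the annotated start was not tested.
Col1a2: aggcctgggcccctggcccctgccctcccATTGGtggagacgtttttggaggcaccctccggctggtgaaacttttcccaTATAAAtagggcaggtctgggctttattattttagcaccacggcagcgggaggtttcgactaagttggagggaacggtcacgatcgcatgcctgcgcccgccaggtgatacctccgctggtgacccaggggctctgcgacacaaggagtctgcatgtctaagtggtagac
The Sparc stretch, chr10:40038817-40039066 on the minus strand, has GGAGGA in 2 places and holds neither TATAAA nor CCAAT on either strand.
Sparc: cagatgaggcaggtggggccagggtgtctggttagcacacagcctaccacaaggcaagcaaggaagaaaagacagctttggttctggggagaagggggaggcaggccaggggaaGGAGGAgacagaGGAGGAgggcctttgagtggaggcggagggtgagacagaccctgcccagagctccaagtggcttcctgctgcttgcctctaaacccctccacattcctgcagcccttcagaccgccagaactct
Among 33469 promoters of the same length in this table, 12.9% held TATAAA, 34.0% held CCAAT and 27.5% held GGAGGA on either strand. The motifs do not overlap each other, and a match is a description of the letters only.

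Sparc (ENSRNOG00000012840), the collagen-binding glycoprotein, was counted 6492 to 45662 times per animal. Levels are given as CPM scaled by the trimmed mean of M-values (TMM), as the lowest, median and highest animal of a group. In sham animals Sparc stood at 345, 541 and 729 CPM sub-acutely and at 376, 451 and 774 CPM chronically. In blast animals it stood at 358, 611 and 748 CPM sub-acutely and at 295, 470 and 638 CPM chronically. The groups overlapped, but 5 of 14 chronic blast animals lay below every sub-acute blast animal, and 6 of 17 sub-acute blast animals lay above every chronic blast animal. No chronic blast animal was among the 10 highest of the 62 animals, against 5 sub-acute blast, 3 sub-acute sham and 2 chronic sham animals.

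Col1a1 (ENSRNOG00000003897), the main chain of type I collagen, ranged 17.5-fold over the 62 animals. In sham animals its lowest, median and highest levels were 7.98, 14.4 and 66.6 CPM sub-acutely and 5.42, 13.1 and 64.7 CPM chronically. In blast animals they were 9.41, 16.3 and 55.2 CPM sub-acutely and 3.80, 10.05 and 31.2 CPM chronically. All groups overlapped, and 5 of 14 chronic blast animals were below every sub-acute blast animal. Col3a1 (ENSRNOG00000003357), the chain of type III collagen, was counted at most 1421 times per animal and ranged 18.1-fold. Its sham levels were 4.61, 9.43 and 28.9 CPM sub-acutely and 2.90, 7.82 and 45.6 CPM chronically, and its blast levels were 4.79, 8.43 and 24.2 CPM sub-acutely and 2.52, 8.003 and 20.5 CPM chronically. The group medians of Col3a1 lay within a narrow band compared to the spread of animals inside each group.

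Fn1 (ENSRNOG00000014288), which encodes fibronectin, ranged 2.79-fold over all animals. Its sham levels were 37.4, 53.1 and 83.6 CPM sub-acutely and 35.2, 51.7 and 98.2 CPM chronically, and its blast levels were 39.7, 50.9 and 68.9 CPM sub-acutely and 38.3, 46.1 and 73.0 CPM chronically. The highest Fn1 animal was a chronic sham animal, and no pair of groups was separated.

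**Figure D1:**
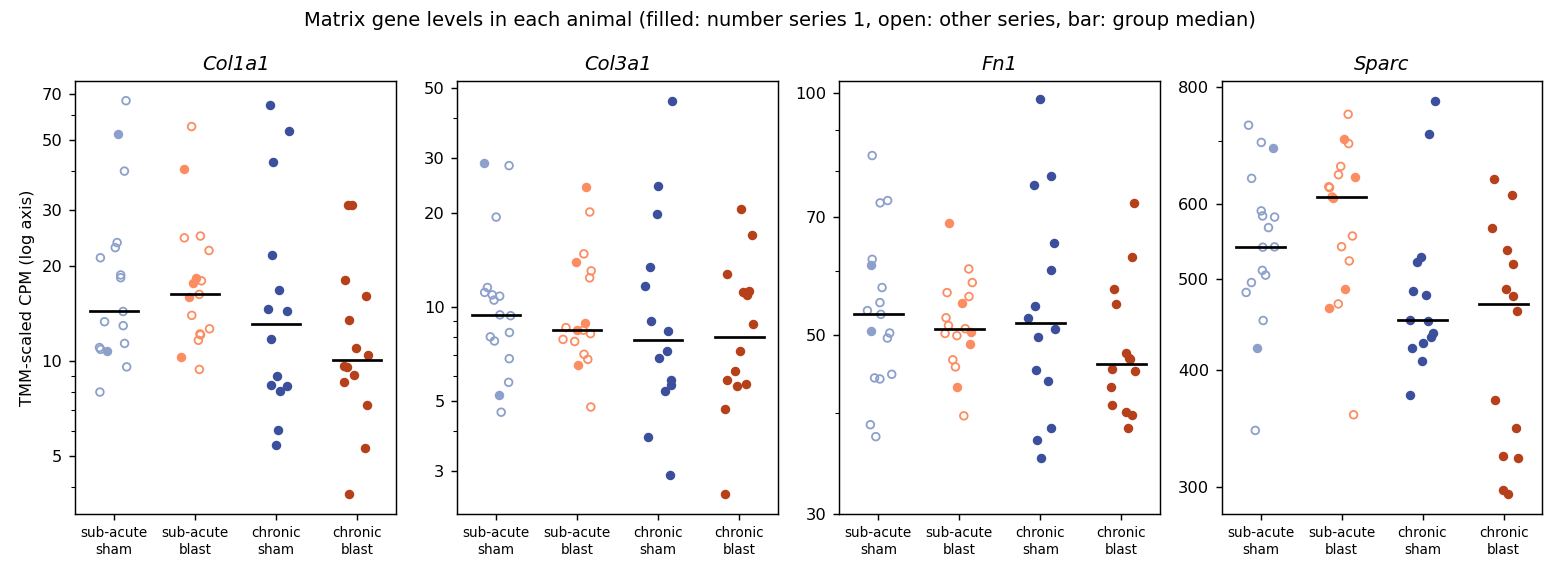
TMM-scaled CPM (log axis) of Col1a1, Col3a1, Fn1 and Sparc in each animal of the 4 groups, with filled points for number series 1, open points for the other series and a bar at the group median. All groups overlap for every gene, a few animals in each group stand high in Col1a1 and Col3a1, and 5 of 14 chronic blast animals lie under all sub-acute blast animals in Sparc.

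To test whether blast exposure was accompanied by changes in these genes at the sub-acute time-point, blast and sham animals were compared in a voom and limma fit over 16535 genes. A gene was called with an adjusted p under 0.05 and a fold of at least 1.2. None of the 4 members tested was called, as 0% of all genes were. None had a raw p under 0.05, beside 857 of 16535 genes, and 1.21% of all genes passed this and the fold threshold. The log2 fold change of blast against sham was 0.09 for Sparc (SE 0.10, 95% interval -0.12 to 0.30, adjusted p = 0.832) and -0.05 for Fn1 (SE 0.10, -0.26 to 0.15, adjusted p = 0.896). Col3a1 had a log2 fold change of -0.02 with an interval from -0.52 to 0.48, and that of Col1a1 ran from -0.55 to 0.55. The intervals allow folds from 0.921 to 1.23 for Sparc and from 0.834 to 1.11 for Fn1, but from 0.683 to 1.46 for Col1a1. edgeR and DESeq2 called none of the 4 members either.

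At the chronic time-point, again none of the 4 members was called in blast compared to sham, where 0% of all genes were. None had a raw p under 0.05, beside 833 of 16535 genes, and 2.5% of all genes passed this and the fold threshold. All 4 estimates were below 0, with a median log2 fold change of -0.16, beside 0.0016 over all genes. Col1a1 and Col3a1 varied together between animals (r = 0.930), so the 4 are not independent, and a joint decrease was not tested. Sparc had a log2 fold change of -0.16 (SE 0.11, 95% interval -0.39 to 0.07, adjusted p = 0.909) and Fn1 one of -0.16 (SE 0.12, -0.40 to 0.07, adjusted p = 0.909). In Sparc, 6 of 14 chronic blast animals lay below every chronic sham animal, but no more than these 6 lay below the chronic sham median. The median was higher in chronic blast (470 CPM) than in chronic sham animals (451 CPM). The difference in Col1a1 was -0.38 (SE 0.34, -1.07 to 0.31, adjusted p = 0.918) and that in Col3a1 was -0.14 (SE 0.31, -0.75 to 0.48, adjusted p = 0.965). The spread between chronic animals left a wide range of collagen differences possible, from a fold of 0.477 to 1.24 for Col1a1. edgeR and DESeq2 called none of the 4, with log2 fold changes of -0.63 for Col1a1 and -0.38 for Col3a1 in both, whereas surrogate variables turned these to 0.17 and 0.30.

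To identify changes with time in the absence of blast, chronic sham animals were compared to sub-acute sham animals. None of the 4 members was called, where 1.55% of all genes were. None had a raw p under 0.05, beside 2969 of 16535 genes. Sparc had a log2 fold change of -0.17 (SE 0.11, 95% interval -0.39 to 0.05, adjusted p = 0.419). Fn1 stood at 0.0045 (SE 0.11, -0.22 to 0.23, adjusted p = 0.988), the smallest difference of the 4. Col1a1 had -0.30 (SE 0.30, adjusted p = 0.620) and Col3a1 -0.18 (SE 0.28, adjusted p = 0.755). With 9 surrogate variables (unlabelled sources of variation estimated from all genes) in the model, Col1a1 and Col3a1 were called at -0.98 (adjusted p = 0.00014) and -0.83 (adjusted p = 0.00028), so this comparison of the collagens depends on that choice. They ranked 64 and 90 of 16535 genes by p in that fit, and the share of all genes called in it is not given here. edgeR and DESeq2 called none of the 4. With quality weights for the libraries none was called in limma either, but Sparc and Col1a1 came near the threshold. Sparc stood at -0.26 (adjusted p = 0.058), Col1a1 at -0.75 (adjusted p = 0.063), Col3a1 at -0.50 (adjusted p = 0.179) and Fn1 at -0.10 (adjusted p = 0.531).

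Within the blast group, 1 of the 4 members was called between the chronic and sub-acute time-points, where 9.73% of all genes were called and 3.02% were called as lower. This was Sparc, with a log2 fold change of -0.42 (SE 0.11, 95% interval -0.64 to -0.20, adjusted p = 0.0077), so that its level decreased by 25.2%. It ranked 657 of 16535 genes by p, and 12 of 14 chronic blast animals lay below the sub-acute blast median. The same count was found in sham animals, where 12 of 14 chronic animals lay below the sub-acute sham median. In bulk tissue, fewer cells that make Sparc and less Sparc RNA per cell cannot be told apart. Leaving out each of the 62 libraries in turn gave log2 fold changes from -0.46 to -0.36 and adjusted p from 0.0027 to 0.028, and without both libraries under 25000000 counts it was -0.40 (adjusted p = 0.012).

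The Sparc difference had nearly the same estimate within number series 1, where 14 chronic and 5 sub-acute blast animals gave a log2 fold change of -0.41 (raw p = 0.024, adjusted p = 0.285), and with the series as a covariate (-0.41, adjusted p = 0.103). The call was lost in both. With a term for the log2 library total, chosen after seeing the data, it was -0.37 (adjusted p = 0.092), and with 9 surrogate variables it was 0.06 (adjusted p = 0.623), so that the direction turned.

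The other members had log2 fold changes below 0 over time in the blast group as well. Col1a1 stood at -0.68 (SE 0.32, 95% interval -1.32 to -0.04), with a raw p of 0.037 and an adjusted p of 0.137, and 11 of 14 chronic blast animals were below the sub-acute blast median. In this comparison 4933 of 16535 genes had a raw p under 0.05. Col3a1 stood at -0.30 (SE 0.28, -0.86 to 0.27, adjusted p = 0.508) and Fn1 at -0.11 (SE 0.11, -0.33 to 0.12, adjusted p = 0.562). The median over the 4 members, of which the 2 collagens varied together, was -0.36, beside -0.017 over all genes. Col1a1 was called with surrogate variables (-0.72, adjusted p = 0.021) and with the term for the library total (-1.24, adjusted p = 0.039), so the type I collagen and not Sparc was the called gene in those fits. There Col1a1 ranked 358 and 478 of 16535 genes by p, and the share of all genes called in those fits is not given here.

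**Figure D2:**
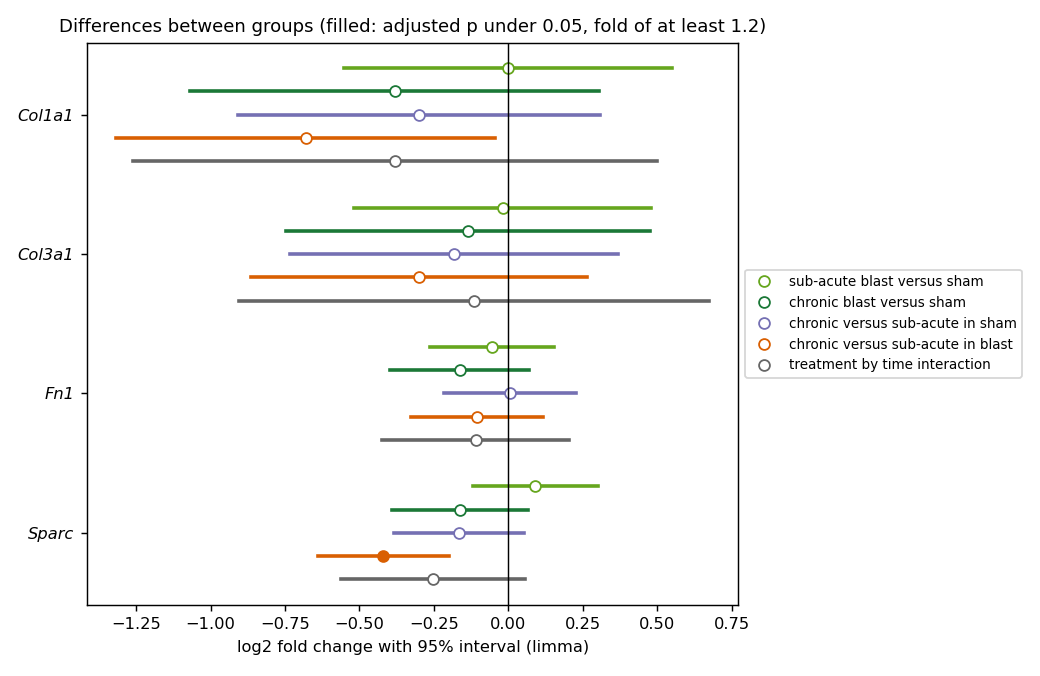
Log2 fold changes of Col1a1, Col3a1, Fn1 and Sparc in the 5 contrasts of the voom and limma fit, with 95% intervals as bars. The bars of both collagens are the widest, and Sparc over time in the blast group, at -0.42, is the estimate that passed adjustment.

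**Figure D3:**
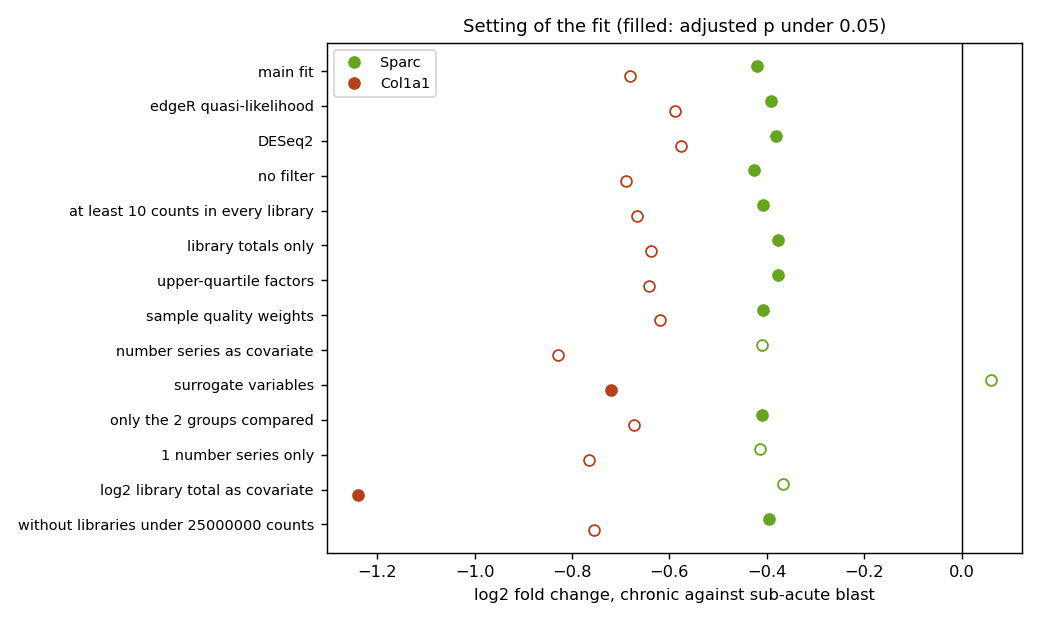
Log2 fold change of Sparc and Col1a1 in chronic compared to sub-acute blast animals under each setting of the analysis, with called values marked. Sparc stays between -0.43 and -0.37 in every model fit but the one with surrogate variables, where it stands at 0.06, and Col1a1 is below 0 in all.

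The change with time was next compared between blast and sham animals by the treatment by time interaction. None of the 4 members passed, where 0% of all genes did, and edgeR and DESeq2 gave none. No member had a raw p under 0.05, beside 919 of 16535 genes. For Sparc the blast change exceeded the sham change by -0.25 on the log2 scale (SE 0.16, 95% interval -0.56 to 0.06, raw p = 0.108, adjusted p = 0.838). A fall in Sparc with time that differed between blast and sham was therefore not shown. The interaction was -0.38 for Col1a1 (SE 0.44, adjusted p = 0.918), -0.12 for Col3a1 (SE 0.39, adjusted p = 0.976) and -0.11 for Fn1 (SE 0.16, adjusted p = 0.935). The interval for Col1a1 ran from -1.26 to 0.50.

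Spread between animals separated the collagens from Fn1 and Sparc. The SD of log2 CPM within groups was 0.892 for Col1a1, larger than that of 94.8% of 16535 genes, and 0.811 for Col3a1, larger than that of 92.0%. Fn1 and Sparc had SDs of 0.312 and 0.310, close to the median of 0.303 over all genes. The spread of the collagens came with a small number of high animals in each group. Sorted by Col1a1, the 10 highest animals were 3 of 17 sub-acute sham, 2 of 17 sub-acute blast, 3 of 14 chronic sham and 2 of 14 chronic blast animals, and the same 10 were the highest in Col3a1. They held 31.2 to 66.6 CPM of Col1a1, against 3.80 to 24.9 in the other 52, and 16.9 to 45.6 CPM of Col3a1, against 2.52 to 14.8. Within every group the lowest of these animals exceeded the next by at least 1.63-fold in Col1a1 and 1.33-fold in Col3a1. Of them 7 were of the 35 animals in number series 1 and 3 of the 27 others, and their library totals ran from 18220986 to 59629415. Of the 10 highest animals in Fn1, 5 were among these, and of the 10 highest in Sparc, 2 were.

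**Figure D4:**
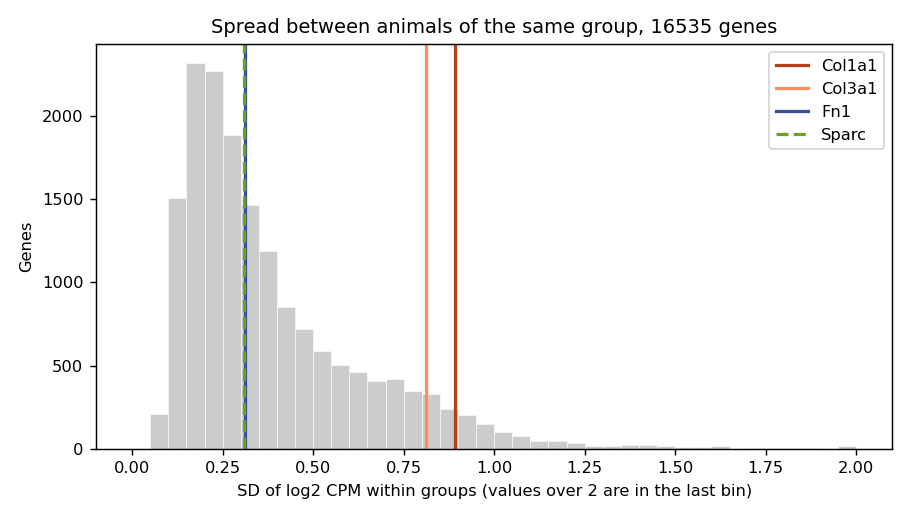
Distribution of the within-group SD of log2 CPM over 16535 genes, with the 4 members marked. Col1a1 at 0.892 and Col3a1 at 0.811 lie in the upper tail, and Fn1 and Sparc lie near the median of 0.303.

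Because the study compared variability between time-points, the variance among chronic animals was divided by that among sub-acute animals for each member. The ratio was above 1 in all 8 cases, 1.72 in sham and 1.56 in blast for Col1a1, 2.07 and 1.71 for Col3a1, 1.87 and 2.05 for Fn1, and 1.13 and 2.15 for Sparc. None differed from 1 beyond the spread (permutation tests, two-sided, adjusted p from 0.444 to 0.846 over 8 ratios, with a smallest raw p of 0.079 for Sparc in blast). Over all genes the median ratio was 1.42 in sham, with 68.2% of genes above 1, and 2.41 in blast, with 87.2% above 1. The members' ratios in blast were all below that of the median gene, and in sham those of Col1a1, Col3a1 and Fn1 were above it and that of Sparc below it.

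The collagens varied together between animals of the same group. As deviations from the group mean of log2 CPM, the 10 highest animals lay at 1.18 or more in Col1a1 and the other 52 at 0.69 or less, so relations are given over all 62 animals and within each of these sets. The sets were made by level, which narrows the range of the collagens within them, and are not groups of the study. For the 62 and the 52 animals group means were removed and values were shuffled within groups. For the 10 animals, here and below, group means were not removed and values were shuffled over all 10. Relations among the 10 can therefore include differences between groups. Over 62 animals Col1a1 and Col3a1 had an r of 0.930 and a rho of 0.902 (adjusted p = 6e-05 for both over 6 pairs), and r was 0.916 without the 2 farthest animals, 0.935 in number series 1, 0.928 in number series 2 and 0.921 after removal of the log2 library total. Among the 52 animals, Col1a1 and Col3a1 had an r of 0.827 and a rho of 0.799 (permutation within groups, adjusted p = 0.00012 for both over 12 relations, from a raw p of 1e-05, the smallest that 100000 resamples give). Without the 2 animals farthest from the median r was 0.777, and it was 0.826 in number series 1 and 0.834 in number series 2. Among the 10 animals r was 0.734 (adjusted p = 0.047), with a rho of 0.661 (adjusted p = 0.134) and an r of 0.684 without the 2 farthest. A link between the collagens was thus present within groups among the 52. It was less firm among the 10, where differences between groups are not removed.

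Fn1 followed the collagens less closely. Over 62 animals its r was 0.560 with Col1a1 (rho 0.527, adjusted p = 9e-05 and 0.00015) and 0.485 with Col3a1 (rho 0.439, adjusted p = 0.00058 and 0.0015). Without the 2 farthest animals these were 0.560 and 0.532, in number series 1 they were 0.540 and 0.463, and in number series 2 they were 0.585 and 0.525. Both relations passed over all animals. Within single groups, r with Col1a1 and Col3a1 was 0.628 and 0.570 in sub-acute sham and 0.712 and 0.625 in chronic sham animals. It was 0.427 and 0.297 in sub-acute blast and 0.235 and 0.203 in chronic blast animals. By r the sham values passed adjustment and the blast values did not. By rho neither passed in sub-acute sham, and that with Col1a1 passed in sub-acute blast animals. A difference between groups in the r of Fn1 was not tested. Among the 52 animals its r was 0.392 with Col1a1 (rho 0.397, adjusted p = 0.044 and 0.036) and 0.323 with Col3a1 (rho 0.301, adjusted p = 0.085 and 0.134), of which the first passed. Without the 2 farthest animals these were 0.374 and 0.294. In number series 1 they were 0.440 and 0.388, and in number series 2 they were 0.304 and 0.188. Among the 10 collagen-high animals r was 0.276 with Col1a1 (rho 0.345, adjusted p = 0.522 and 0.439) and -0.157 with Col3a1 (rho -0.103, adjusted p = 0.732 and 0.810), neither past the threshold.

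Sparc showed no relation past adjustment with any other member. Over 62 animals its r was -0.070 with Col1a1 (rho -0.120), -0.185 with Col3a1 (rho -0.222) and 0.032 with Fn1 (rho -0.00028), with adjusted p of 0.716, 0.246 and 0.809 for r. Among the 52 animals its r was -0.127 with Col1a1 (rho -0.071, adjusted p = 0.522 and 0.758), -0.277 with Col3a1 (rho -0.246, adjusted p = 0.135 and 0.194) and -0.163 with Fn1 (rho -0.164, adjusted p = 0.435 and 0.376). Without the 2 farthest animals these were -0.087, -0.275 and -0.189. In number series 1 they were -0.092, -0.330 and -0.273, and in number series 2 they were -0.152, -0.128 and -0.0099. Among the 10 collagen-high animals its r was 0.052 with Col1a1 (rho 0.091), -0.308 with Col3a1 (rho -0.539) and 0.653 with Fn1 (rho 0.624), with adjusted p of 0.885, 0.522 and 0.106 for r.

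**Figure D5:**
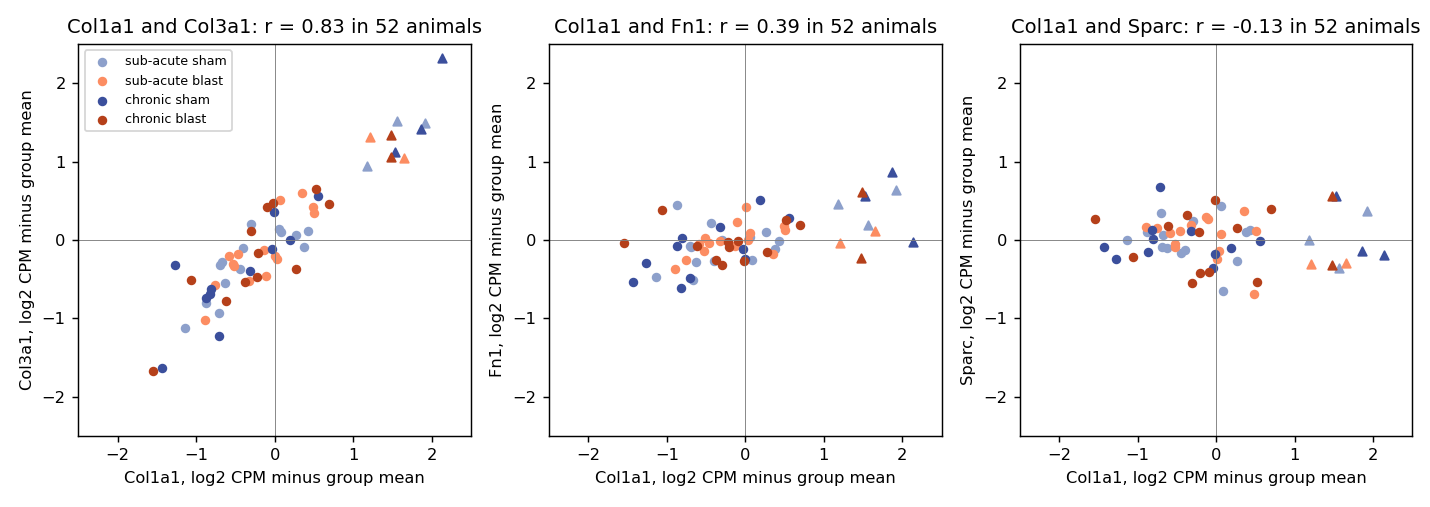
Deviations of log2 CPM from the group mean in each of 62 animals, for Col1a1 against Col3a1, Fn1 and Sparc, colored by group, with triangles for the 10 animals highest in Col1a1 and circles for the other 52. Among the circles Col1a1 and Col3a1 lie along a line (r = 0.827), Fn1 follows Col1a1 more loosely (r = 0.392), and Sparc shows little slope (r = -0.127).

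Library totals tended to be lower where the collagens were higher, and this was weaker without the 2 farthest libraries. Over 62 animals, within groups, the log2 total had an r of -0.363 with Col1a1 (rho -0.241, permutation tests, adjusted p = 0.012 and 0.126 over 4 genes) and of -0.442 with Col3a1 (rho -0.325, adjusted p = 0.0028 and 0.048). Without the 2 farthest libraries these were -0.168 and -0.248, in number series 1 they were -0.448 and -0.497, and in number series 2 they were -0.216 and -0.372. Fn1 and Sparc showed no relation past adjustment (r = 0.020 and 0.094, adjusted p = 0.884 and 0.677).

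The 2 shallowest libraries, both chronic, were among the 10 collagen-high animals. The sets were made by Col1a1 level, so values within them leave out the contrast that these libraries carry, and do not show that depth and collagen levels were unrelated. Among the 52 animals the log2 total had an r of -0.102 with Col1a1 (rho -0.139, adjusted p = 0.644 and 0.684 over 8 relations), -0.227 with Col3a1 (rho -0.267, adjusted p = 0.401 and 0.215), 0.026 with Fn1 (rho -0.022, adjusted p = 0.855 and 0.879) and -0.108 with Sparc (rho -0.089, adjusted p = 0.644 and 0.739). Without the 2 farthest libraries these were -0.161, -0.263, -0.143 and -0.184. In number series 1 they were -0.182, -0.221, -0.237 and 0.119, and in number series 2 they were -0.066, -0.325, 0.257 and -0.341. Among the 10 animals the r of Col3a1 was -0.486 and that of Sparc 0.604 (both adjusted p = 0.401), and none of the 8 relations passed. With a term for the library total in the model, Col1a1 over time in blast moved from -0.68 to -1.24.

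Among all genes tested, the 3 whose deviations were most like the mean of the 4 tested members, over all 62 animals with the collagen-high ones included, were ENSRNOG00000025001 (r = 0.837), ENSRNOG00000014137 (r = 0.815) and ENSRNOG00000010643 (r = 0.809). The last of these had the highest r with Col1a1, 0.853, of the 3. With Sparc their r ran from 0.033 to 0.274, lower than with Col1a1, Col3a1 or Fn1 in each case.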

How the data were processed

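Amygdala RNA of 62 rats, 1 library per animal, was analysed in 4 groups, set by the treatment and time-point labels ("Acute" in the labels is the sub-acute time-point). The authors prepared stranded, rRNA-depleted libraries, aligned reads to Ensembl Rnor_6.0 with STAR 2.4.2a and counted them with featureCounts 1.4.3-p1, and the deposited values are raw counts per gene. Strand setting and multi-mapping reads are not given in the sources used here, so overlapping genes and near copies are uncertain. The table held 2 columns that match no sample, which were not used.

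From the counts, TMM factors (edgeR 4.0.16) and a voom fit in limma 3.58.1 (R 4.3.3) with 1 mean per group were computed for the 16535 genes that passed filterByExpr, with Benjamini-Hochberg adjustment over all of them, and limma gave every adjusted p of a group difference. Differential expression needed an adjusted p under 0.05 and a fold of at least 1.2, and the interaction had no fold threshold. Log2 CPM used a prior count of 2. Variance ratios and correlations were compared by two-sided permutation tests with 100000 resamples (scipy 1.17.1). On simulated counts for 16445 genes, 94.5% of 200 genes changed 2-fold in chronic blast animals were recovered over time in blast, with 15 false calls. For the interaction 80.5% were recovered, with 10 false calls. The changed genes were drawn from all genes, and their fold exceeded every estimate of the members in the main fit. These rates therefore do not give the power for the members.

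Total counts of 18220986 to 78585782 per animal set the precision, and floors and intervals of counts cover counting error only. Results were recomputed with DESeq2 1.42.0, the quasi-likelihood test of edgeR, other scaling and filters, quality weights, surrogate variables (sva 3.50.0), number series, fewer groups, another fold threshold and permutation tests. Those chosen after seeing the data were a term for the library total, leaving out shallow or single libraries, single number series or groups for the correlations, the 10 collagen-high animals apart, and the ratio of the collagens. The members and gene lists were chosen with earlier results of these data known. The named genes were the 5 members and the 3 genes closest to their mean. Lists of other matrix genes and cell type markers were fixed by symbol and were not run, since no ID had a symbol.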

Additional observations from a re-analysis of the deposited data

How the results depend on the processing

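Over the alternatives, 346 of 392 values kept their direction and side of the threshold, 9 lost and 5 gained a call, and 32 turned direction. No paired analysis was possible because every animal belongs to a single group and no replicate number recurs between groups. Over time in blast, the number of called members was 1, but 0 with the number series as a covariate, 0 in number series 1 alone, 0 at a log2 fold change of 1.2, and 2 by single-gene permutation tests (unadjusted). Over time in sham it was 2 with surrogate variables. The share of all genes called under these alternatives is not given here. The number of related pairs was 3 over all 62 animals, collagen-high ones included, but 1 in sub-acute blast animals alone and 1 in chronic blast animals alone. For sub-acute blast against sham, Col1a1 turned to 0.0025 with no filter, 0.00038 where every library had to hold 10 counts, 0.13 with the library total and 0.00015 without the libraries under 25000000 counts, and Col3a1 to 0.11 with the library total. With surrogate variables, Col1a1 and Col3a1 turned to 0.17 and 0.30 for chronic blast against sham, Fn1 to -0.16 and Sparc to 0.079 over time in sham, Sparc to 0.060 over time in blast, and the interactions of Col1a1, Col3a1 and Fn1 to 0.26, 0.34 and 0.017. With quality weights these interactions were 0.13, 0.14 and 0.022, and Fn1 over time in sham was -0.10. Col3a1 over time in sham turned to 0.061 with edgeR and 0.075 with DESeq2, and Fn1 to -0.046 with the series as a covariate and -0.052 in number series 1 alone. Sham variance ratios turned to 0.638 for Sparc by the squared median absolute deviation, and in number series 1 alone, with 2 sub-acute animals, to 0.509, 0.383 and 0.346 for Col1a1, Col3a1 and Sparc. With collagen-high animals included, the r of Fn1 with Sparc turned from 0.032 to -0.0076 in sub-acute animals, -0.012 in number series 1, -0.44 in sub-acute blast and -0.018 in chronic sham animals, and that of Col1a1 with Sparc from -0.070 to 0.040 in chronic, 0.026 in chronic sham and 0.058 in chronic blast animals. Leaving out single libraries moved Col1a1 and Col3a1 for sub-acute blast against sham from -0.10 to 0.11 and from -0.11 to 0.067, Fn1 over time in sham from -0.062 to 0.060 and the Col3a1 interaction from -0.25 to 0.019, none of them called. The cause of these shifts was not tested. Without a filter, the Col1a2 row had an adjusted p of 0.023 in limma over time in blast, with an estimate above 0. Its single count lay in a sub-acute blast animal, against that direction. Over time in sham, with 0 counts in both groups, the raw p in limma was 0.032. These values do not rest on detected transcripts, and no fold is given for the row.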

Other observations

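The balance of both collagens was looked at after the data had been seen. The log2 ratio of Col1a1 to Col3a1 counts, with 0.5 added to each, was 0.81 ± 0.28 (SD, n = 17) in sub-acute sham, 0.84 ± 0.29 (n = 17) in sub-acute blast, 0.70 ± 0.38 (n = 14) in chronic sham and 0.46 ± 0.37 (n = 14) in chronic blast animals. It was lower in chronic than in sub-acute blast animals by -0.38 (two-sided permutation test, p = 0.0032, and 0.013 after adjustment over 4 comparisons), while the sham difference was -0.11 (adjusted p = 0.475), and the difference between both was not tested. Chronic blast against chronic sham gave -0.24 (adjusted p = 0.217) and sub-acute blast against sham 0.03 (adjusted p = 0.739). Without single libraries the blast value ran from -0.43 to -0.34 with p from 0.00063 to 0.0073. In number series 1 alone, with 14 chronic and 5 sub-acute blast animals, it was -0.28 (exact permutation test over 11628 splits, p = 0.138), and number series and time-point cannot be told apart further.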
